A study of Mus musculus with 9 samples.

Results

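The genes described here are 5 genes that mark proprioceptors, the sensory neurons of muscle and tendon: Runx3, Etv1, Pvalb, Whrn and Spp1. They were chosen by name, as a list, and all 5 were found by symbol among the 55247 genes of the table. RNA was sequenced from dorsal root ganglia (DRGs) of mouse embryos at E18.5, in 9 libraries of 3 genotypes with 3 libraries each, to learn how gene expression in the ganglia differs when Meis2 is inactivated. WT embryos are labelled WT, with no engineered allele named. Isl1Cre/+ embryos carried the Cre recombinase at 1 copy of Isl1, so that they were also heterozygous for this LIM homeobox gene. Isl1Cre/+::Meis2LoxP/LoxP embryos, called mutant here, carried the same Cre allele and LoxP sites around an exon on both copies of Meis2, a gene for a TALE homeodomain transcription factor. Cre is made there only in cells that use Isl1, which among DRG cells are the postmitotic sensory neurons, and Meis2 of other cells is left intact. The Isl1 knock-in is thus shared by the Isl1Cre/+ and the mutant libraries, whereas no library is labelled as having the LoxP alleles and no Cre.

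Proprioceptors carry signals from muscle spindles and Golgi tendon organs to the spinal cord. Neurotrophin-3 from muscle acts on them through its receptor TrkC, and this signal sustains the neurons and the transcription factors that complete their differentiation. Of the 5 genes, Runx3 encodes the Runt domain transcription factor that keeps neurons on the TrkC fate, and Etv1 an ETS factor needed for their axons to reach motor neurons. Pvalb encodes the calcium buffer parvalbumin, Whrn the PDZ scaffold protein whirlin, and Spp1 the secreted glycoprotein osteopontin. All but Whrn are known as well from other cells that can lie in or near a dissected ganglion: Runx3 from cartilage and lymphocytes, Etv1 from motor neurons, Pvalb from fast muscle fibres and spinal interneurons, and Spp1 from bone, cartilage, macrophages and motor neurons.

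All positions are on GRCm38 (mm10), with exons from GENCODE release M21. Runx3 (ENSMUSG00000070691.10) lies on the plus strand at chr4:135120652-135177990 with 5003 exonic bases, and Etv1 (ENSMUSG00000004151.17) on the plus strand at chr12:38779380-38870484 with 13296. Pvalb (ENSMUSG00000005716.16) lies on the minus strand at chr15:78191114-78206400 with 1041 exonic bases, and Whrn (ENSMUSG00000039137.18) on the minus strand at chr4:63414910-63495991 with 7337. Spp1 (ENSMUSG00000029304.14) lies on the plus strand at chr5:104435118-104441050 with 1648 exonic bases. No exon of the 5 genes overlaps a gene on the opposite strand. In Spp1, 309 exonic bases (18.75%) are shared with Gm42793, a provisional transcript model on the same strand, and reads on these bases cannot be assigned to either gene with certainty.

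Meis2 binds DNA, and Runx3 and Etv1 are themselves DNA-binding proteins, so the promoter windows of the genes the results turn on are shown, taken from RefSeq on GRCm38.p6 and read 5′ to 3′ on the strand of the gene. Each window covers 300 bases around a transcription start, and a promoter window was found for 5 of the 5 genes. Capitals mark matches on either strand to the cores TGACAG (MEIS), TGTGGT (RUNX) and CGGAAG (ETS), which do not overlap here. The windows lie at chr4:135120395-135120694 for Runx3, chr4:63495942-63496241 for Whrn and chr5:104434861-104435160 for Spp1.
Runx3: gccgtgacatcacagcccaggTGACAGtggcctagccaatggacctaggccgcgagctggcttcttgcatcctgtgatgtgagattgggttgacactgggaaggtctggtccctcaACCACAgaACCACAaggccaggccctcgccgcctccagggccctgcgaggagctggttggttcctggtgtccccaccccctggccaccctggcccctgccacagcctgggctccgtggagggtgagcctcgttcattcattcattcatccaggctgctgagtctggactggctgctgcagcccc
Whrn: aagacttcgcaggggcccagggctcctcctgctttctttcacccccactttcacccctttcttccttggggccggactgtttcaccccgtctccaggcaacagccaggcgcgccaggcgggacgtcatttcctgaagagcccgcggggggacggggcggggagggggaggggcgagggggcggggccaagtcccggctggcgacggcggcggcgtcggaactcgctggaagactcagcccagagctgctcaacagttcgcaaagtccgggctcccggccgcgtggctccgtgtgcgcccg
Spp1: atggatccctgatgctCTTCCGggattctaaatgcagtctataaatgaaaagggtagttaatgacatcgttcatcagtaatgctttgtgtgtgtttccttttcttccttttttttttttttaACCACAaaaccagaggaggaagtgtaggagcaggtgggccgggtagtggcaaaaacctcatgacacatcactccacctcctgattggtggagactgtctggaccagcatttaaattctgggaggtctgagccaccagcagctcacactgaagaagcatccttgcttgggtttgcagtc
The Runx3 window holds 1 MEIS core and 2 RUNX cores, the Spp1 window 1 RUNX core and 1 ETS core, and the Whrn window none of the 3. Among all 32851 promoter windows of this length, 19.2% hold the MEIS core, 16.8% the RUNX core and 16.9% the ETS core, so each match is a common one and is given only as a description of these letters. Of the windows not printed, the first of Pvalb holds 1 MEIS core, the second of Pvalb 1 ETS core, and the first of Etv1 1 RUNX core.

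The libraries held 23854607 to 29103444 counts, and the 13200 genes that reached 100 counts in any library were tested, all 5 proprioceptor genes among them. Meis2 checked the genotypes, at 95.4 to 109.9 cpm (read counts scaled to library size, with TMM normalization) in the WT, 89.5 to 102.1 in the Isl1Cre/+ and 40.8 to 41.2 in the mutant libraries. Isl1 followed the Cre allele, at a mean of 262 cpm in WT, 186 in Isl1Cre/+ and 188 in mutant libraries. The tissue label held: all 9 genes of a list for sensory neurons passed the filter, and they summed to 8461 to 11110 cpm per library, whereas 4 of 5 motor neuron genes, Mnx1, Chat, Slc18a3 and Lhx3, were under 1 cpm on average and the other, Slc5a7, was at 11.2 to 18.1 cpm. WT library 1 and mutant library 2 stood apart, with median rank correlations to the other libraries of 0.981 and 0.979 against 0.991 to 0.995 for the rest. Skeletal muscle genes summed to between 71.3 and 2487 cpm and haemoglobin and other erythroid genes to between 343 and 3960 cpm, and both were highest in mutant library 2. The labels do not say whether the libraries come from separate litters, so p-values measure the spread between these libraries only.

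All 5 genes were detected in every library. Per kilobase of exon, over the 9 libraries, Pvalb was the most abundant at 49.5 cpm per kb ± 5.64 (SD, n = 9), followed by Etv1 at 15.9 ± 2.45, Spp1 at 12.5 ± 6.03, Runx3 at 3.83 ± 0.702 and Whrn at 2.11 ± 0.293. The median tested gene stood at 6.55 cpm per kb, so that Pvalb, Etv1 and Spp1 were above it and Runx3 and Whrn below. Of neighbours in this order, Spp1, at 5.39 to 24.1 cpm per kb across libraries, overlapped with Etv1 at 12.2 to 19.5 and with Runx3 at 3.03 to 5.46, while Pvalb stood clear of Etv1 and Runx3 of Whrn. Read counts per library were 320 to 519 for Whrn, 261 to 1143 for Spp1 and highest for Etv1, at 4311 to 7412. In these bulk samples, fewer cells of a type and less RNA per cell cannot be told apart.

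**Figure D1:**
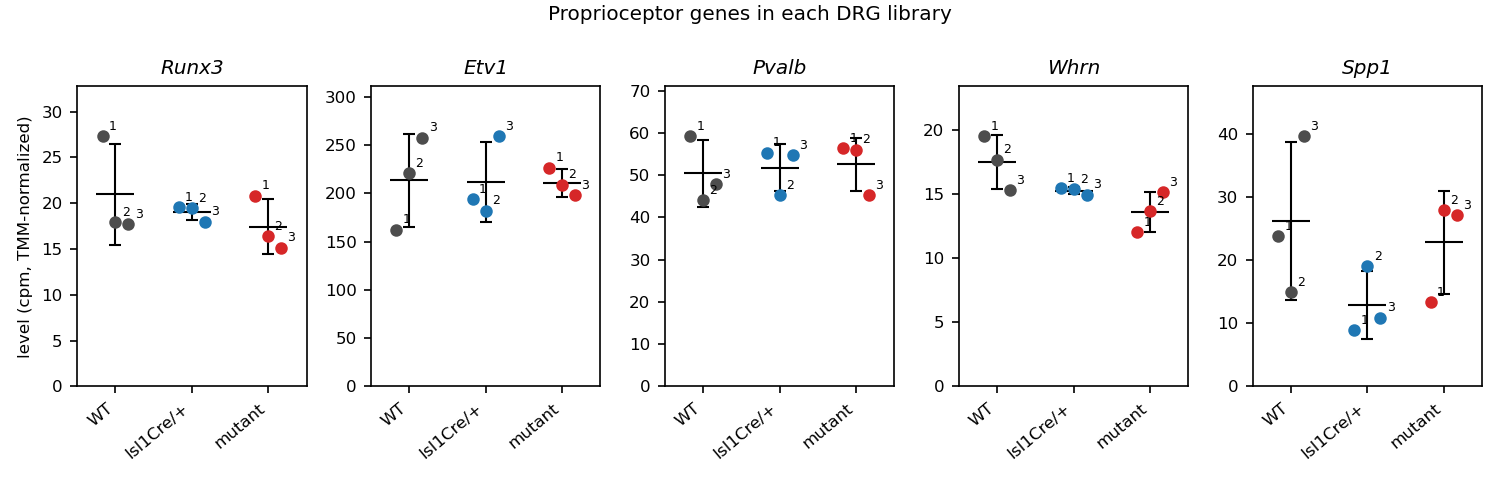
Levels of the 5 genes in each library, in TMM-normalized cpm on linear axes that start at 0, with points numbered by library and black bars for the mean ± SD of 3 libraries. Etv1 and Pvalb have means in the 3 genotypes that differ by less than the SD, Whrn is lower in the 3 mutant libraries than in the 3 WT libraries, and Spp1 is scattered within every genotype.

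The transcription factors Runx3 and Etv1 did not meet the criterion used by the study, a change of 1.2-fold or more with an unadjusted p under 0.05, in any comparison. Runx3 was at 27.3, 17.9 and 17.7 cpm in the WT libraries, 19.6, 19.4 and 17.99 cpm in the Isl1Cre/+ libraries and 20.8, 16.4 and 15.1 cpm in the mutant libraries. WT library 1 is the one high value, and 2 of the 3 mutant libraries lie below all 6 control libraries. The log2 fold change of Runx3 in the mutant was −0.26 ± 0.21 (SE) against WT and −0.12 ± 0.13 against Isl1Cre/+. In edgeR's quasi-likelihood test the unadjusted p was 0.236 and 0.357, and the exact permutation test gave 0.4 in both. Their 95% intervals reached from −0.74 to 0.22 and from −0.42 to 0.17, and a ratio to WT as low as 0.597 lies within the first. Without WT library 1, the difference from WT was −0.03, without mutant library 1 it was −0.41, and without mutant library 1 the difference from Isl1Cre/+ was −0.27 and met the criterion.

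Etv1 was at 162, 221 and 258 cpm in the WT libraries, 194, 182 and 259 cpm in the Isl1Cre/+ libraries and 227, 209 and 198 cpm in the mutant libraries. The mutant libraries lie within the range of either control. The means of 214, 212 and 211 cpm differed far less than the libraries of a genotype did, and the log2 fold change of the mutant was −0.02 ± 0.17 against WT and −0.0039 ± 0.13 against Isl1Cre/+, with exact permutation p of 1.0 and 0.9. With all 6 controls, the 95% interval for the mutant ran from a ratio of 0.794 to one of 1.24.

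Pvalb, the calcium buffer, also did not meet the criterion in any comparison. It stood at 59.2, 44.0 and 48.0 cpm in WT, 55.4, 45.3 and 54.7 cpm in Isl1Cre/+ and 56.4, 56.0 and 45.2 cpm in mutant libraries. Each genotype spanned nearly the same range, and the groups overlap in all comparisons. The log2 fold change in the mutant was 0.06 ± 0.14 against WT (exact permutation p = 0.9), 0.02 ± 0.11 against Isl1Cre/+ (p = 0.6) and 0.04 ± 0.11 against all 6 controls (p = 0.786), the last with a 95% interval from a ratio of 0.867 to one of 1.22. The sum of skeletal muscle genes differed 34.9-fold between the libraries and Pvalb, which fast fibres also use, 1.35-fold. The part of muscle in the level of Pvalb was not tested.

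Whrn, the scaffold gene, was the one of the 5 that met the criterion in the mutant against WT. It was at 19.5, 17.7 and 15.3 cpm in the WT libraries, 15.5, 15.4 and 15.0 cpm in the Isl1Cre/+ libraries and 12.03, 13.7 and 15.2 cpm in the mutant libraries. The highest mutant library lies just under the lowest WT library, and mutant library 3 and WT library 3 both lie within the range of the Isl1Cre/+ libraries. Against WT, Whrn fell by 0.36 ± 0.14 on the log2 scale (unadjusted p = 0.0334, adjusted p = 0.9999, 95% interval −0.69 to −0.04), to 0.778 of the WT level, and the exact permutation test gave p = 0.1, the smallest that 3 against 3 libraries allow. Against Isl1Cre/+ its log2 fold change was −0.16 ± 0.10 (unadjusted p = 0.149, exact permutation p = 0.2), and for Isl1Cre/+ against WT it was −0.19 ± 0.10 (unadjusted p = 0.105, exact permutation p = 0.3). These comparisons share libraries, so their values are not independent of each other. Against all 6 control libraries Whrn fell by 0.27 ± 0.11 (unadjusted p = 0.0352, adjusted p = 0.9996), with an exact permutation p of 0.0476 where 0.0238 is the smallest possible.

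The call of Whrn depended on single libraries and on the processing. Against WT it was lost without WT library 1 (−0.28), without WT library 2 (−0.35), without mutant library 1 (−0.28) and without mutant library 2 (−0.34). It was also lost when libraries were scaled by their sensory neuron genes (−0.29) and with the replicate number as a block (−0.36). Without both libraries that stood apart it was −0.28 and not called. Against all 6 controls the ratio of 0.832 sits at the fold change that the criterion asks for, and the call was lost without WT library 1 (−0.21), WT library 2 (−0.24), mutant library 1 (−0.18) or mutant library 2 (−0.26). With all libraries kept it was also lost with DESeq2 size factors (−0.26), with scaling by sensory neuron genes (−0.20), with no filter (−0.25), in the DESeq2 test (−0.26), with all 3 genotypes in 1 fit (−0.26) and with the replicate number as a block (−0.26). The call against all 6 controls was lost too without both libraries that stood apart (−0.21), so that 11 of 19 alternatives ended it. In comparisons where Whrn was not called as reported, the criterion was met for Isl1Cre/+ against WT without WT library 3 (−0.27), and the difference of the mutant from Isl1Cre/+ ranged from −0.25 without mutant library 3 to −0.08 without mutant library 1.

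Spp1 was the most variable of the 5 genes. It stood at 23.8, 15.0 and 39.7 cpm in WT libraries, 8.88, 19.1 and 10.9 cpm in Isl1Cre/+ libraries and 13.4, 27.9 and 27.2 cpm in mutant libraries. WT library 3 is highest and Isl1Cre/+ libraries 1 and 3 are lowest, and every pair of genotypes overlaps. Between Isl1Cre/+ and WT, Spp1 fell by 1.01 ± 0.40 on the log2 scale (unadjusted p = 0.0381, adjusted p = 0.9999, 95% interval −1.94 to −0.07), with an exact permutation p of 0.2. In the mutant its log2 fold change was 0.82 ± 0.35 against Isl1Cre/+ (unadjusted p = 0.0529, exact permutation p = 0.2) and −0.20 ± 0.39 against WT (unadjusted p = 0.628, exact permutation p = 0.9), so that the mutant stood between both controls, at 22.8 cpm ± 8.19 (SD, n = 3) against 26.2 ± 12.5 in WT and 12.96 ± 5.40 in Isl1Cre/+.

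The fall of Spp1 in Isl1Cre/+ lost its call without WT library 3 (−0.56), without Isl1Cre/+ library 1 (−0.79) and without Isl1Cre/+ library 3 (−0.90). The difference of the mutant from Isl1Cre/+, just short of the criterion, met it without Isl1Cre/+ library 2 (1.21) and without mutant library 1 (1.09), and was 0.65 and not called without mutant library 2, one of the libraries that stood apart.

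**Figure D2:**
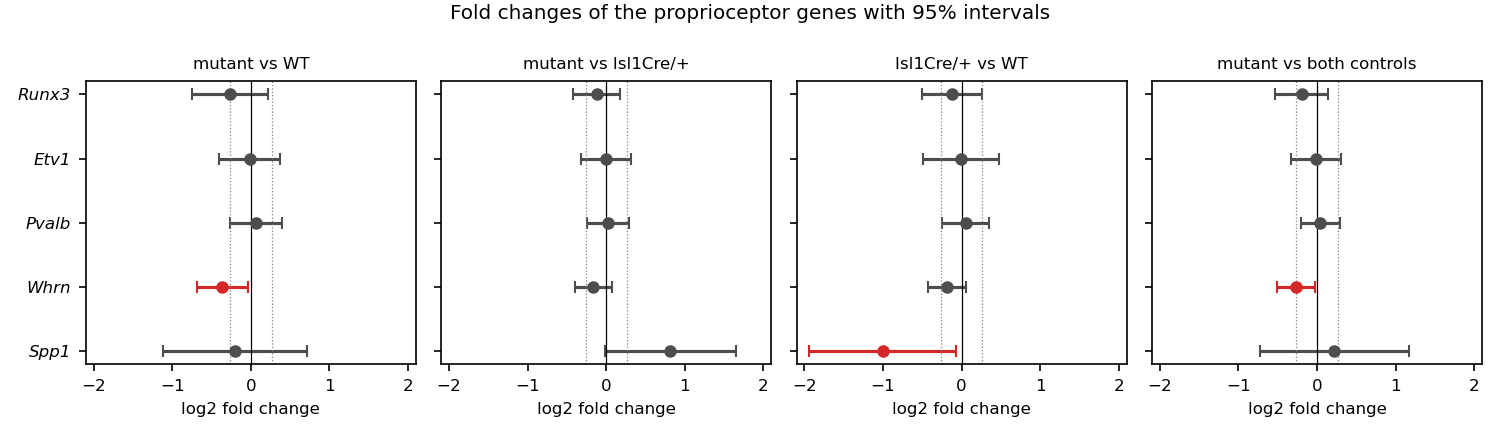
Log2 fold changes of the 5 genes in the 4 comparisons, with bars for 95% intervals, dotted lines at a fold change of 1.2 in either direction and red for genes that met the criterion. Whrn is red in the mutant against WT (−0.36) and against both controls (−0.27), Spp1 in Isl1Cre/+ against WT (−1.01), and the bars of Spp1 are the widest throughout.

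Counted over the 5 genes, 1 met the criterion in the mutant against WT, where 0.318% of all tested genes did. None did in the mutant against Isl1Cre/+, where 1.67% of tested genes did, 1 did in Isl1Cre/+ against WT (1.4% of tested genes) and 1 in the mutant against both controls (0.674%). The libraries of the groups did not overlap for 1 of the 5, Whrn, between mutant and WT, beside 2.76% of tested genes. They overlapped for all 5 genes in the mutant against Isl1Cre/+, in Isl1Cre/+ against WT and in the mutant against both controls, where 7.65%, 5.66% and 0.848% of tested genes did not overlap. At an adjusted p under 0.05 none of the 5 passed in edgeR, beside 0.00758% of tested genes in each of the 3 comparisons of the mutant, a share made up by Meis2 alone, and 0.0% in Isl1Cre/+ against WT, where 236 genes had an unadjusted p under 0.05. DESeq2 called 1 gene in Isl1Cre/+ against WT and 10 in the mutant against Isl1Cre/+, none of them among the 5. The median log2 fold change of the 5 genes was −0.20 in the mutant against WT and −0.0039 against Isl1Cre/+, and that of all tested genes −0.0094 and 0.00029.

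The 5 genes did not vary to the same degree among libraries of the same genotype. The coefficient of variation within genotypes was 42.1% for Spp1, and 2.64% of tested genes had a larger one. It was 18.3% for Runx3, 17.7% for Etv1, 13.04% for Pvalb and 9.71% for Whrn, where the median tested gene had 10.1%. Relative to counting error, the variance of Etv1 was 184 times as large (chi-square per degree of freedom) and that of Spp1 104 times, so that depth did not limit either, whereas for Whrn it was 3.97 times, below the median of 8.02.

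No pair of the 5 genes had a correlation across libraries that passed the test. Over the 9 libraries, Pearson's r of log2 cpm between pairs of the 5 ranged from −0.515 for Runx3 and Etv1 to 0.556 for Runx3 and Pvalb, with exact permutation p of 0.154 and 0.109 and Spearman's rho of −0.333 (p = 0.385) and 0.617 (p = 0.0857). After adjustment over the 21 relations computed, no pair had an adjusted p below 0.405 for r or 0.316 for rho. Without the 2 libraries farthest from the median, these r were 7.41e-06 and 0.412, and the strongest r were then −0.714 for Etv1 and Spp1 (−0.0427 over all 9) and −0.657 for Pvalb and Whrn (−0.157). As a description, the tested genes most like Runx3 across the libraries were Baz2b (r = 0.980), Ckmt1 (0.980) and Diras1 (0.970), and those most like Etv1 were Tmem47 (0.971), Abi2 (0.960) and Smim10l1 (0.957). For Pvalb they were Nsmce2 (0.943), Arfgap3 (0.924) and Morc3 (0.920), and for Whrn Lasp1 (0.967), Pde4a (0.938) and Fam110a (0.932). For Spp1 they were the noncoding Fbxl12os (0.943), Acp5 (0.940), which encodes an acid phosphatase of osteoclasts, and Myoz2 (0.929), a gene of striated muscle.

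Spp1 went with cartilage genes and with skeletal muscle genes across the libraries. The 6 genes of the cartilage list, led by Col2a1, summed to 111, 67.9 and 114 cpm in the WT, 64.9, 87.4 and 57.8 cpm in the Isl1Cre/+ and 77.6, 102 and 122 cpm in the mutant libraries. The 4 libraries highest in this sum were also the 4 highest in Spp1, while within the Isl1Cre/+ and the mutant libraries the order differed in part. Pearson's r of Spp1 with the list was 0.916 over 9 libraries (exact permutation p = 0.00105, adjusted p = 0.0221 over 21 relations) and 0.925 without the 2 farthest libraries, while Spearman's rho was 0.883 (p = 0.00307, adjusted p = 0.0323). For the skeletal muscle list, Spearman's rho was higher, at 0.95 (exact permutation p = 0.000353, adjusted p = 0.00741), and r was 0.869 (p = 0.00292, adjusted p = 0.0306) and 0.877 without the 2 farthest libraries. For the erythroid list r was 0.814 (exact permutation p = 0.00813, adjusted p = 0.0569) and rho 0.833 (p = 0.00827, adjusted p = 0.0579), with r of 0.804 without the 2 farthest. The muscle and erythroid relations were computed after the values were seen. Of the 5 cartilage genes tested, Acan (1.12 ± 0.40) and Hapln1 (0.40 ± 0.14) met the criterion in the mutant against Isl1Cre/+, both higher. In the quasi-likelihood test both had an adjusted p of 0.9997. Of all tested genes 1.67% met the criterion there, 186 of 221 on the higher side. All 5 cartilage genes were on the higher side there and all 5 on the lower side in Isl1Cre/+ against WT, where none met the criterion and 1.4% of all tested genes did. The part of cartilage, muscle and blood cells in the differences of Spp1 between genotypes was not tested, and within a genotype 3 libraries are too few for a relation.

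**Figure D3:**
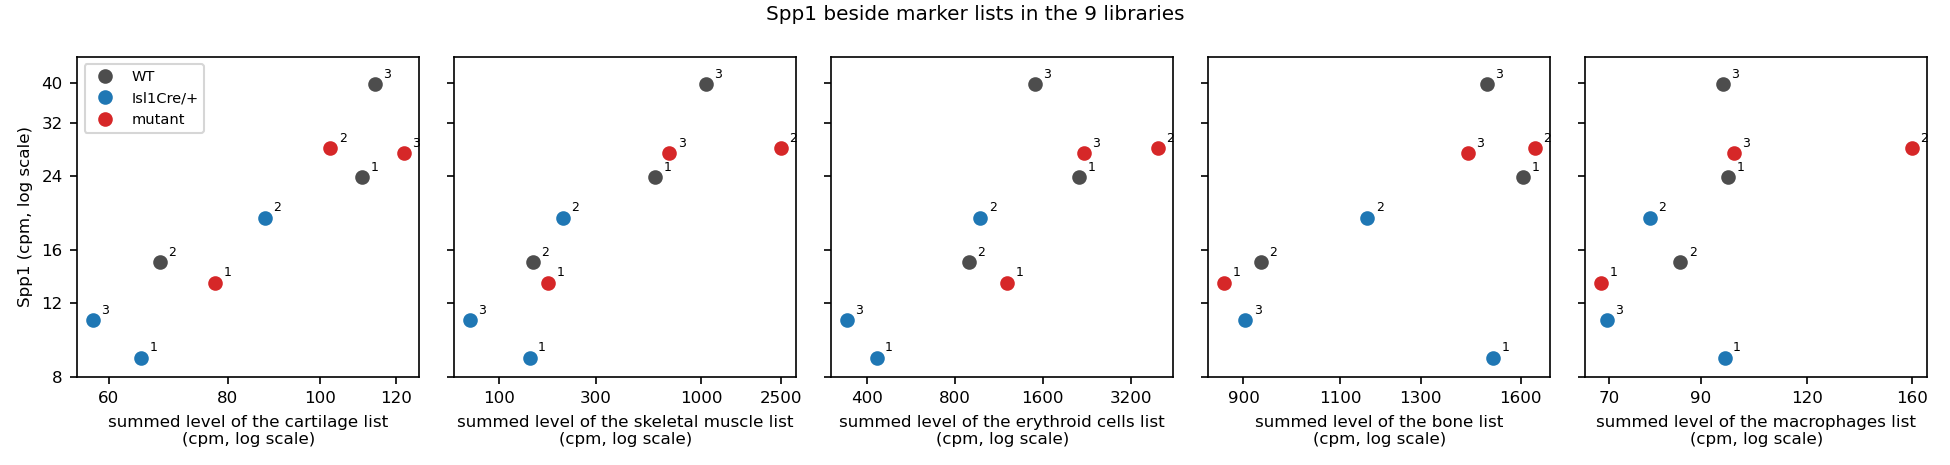
Spp1 in each library against the summed level of the cartilage, skeletal muscle, erythroid, bone and macrophage lists, both axes in cpm on log scales, with points coloured by genotype and numbered by library. Spp1 rises along the cartilage (r = 0.916), skeletal muscle (0.869) and erythroid sums (0.814), and is more scattered along the bone (0.556) and macrophage sums (0.522). The bone sum is mostly Col1a1.

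The summed lists for other cells known to use Spp1 had a lower r with it. For the bone list r was 0.556 (exact permutation p = 0.120, rho 0.5, p = 0.178, r without the 2 farthest libraries 0.333), and its sum, 864 to 1647 cpm, was mostly Col1a1, while Bglap, Bglap2, Phex and Ifitm5 were under 1 cpm on average. This r thus mostly describes Col1a1 and does not rank bone below cartilage or muscle. Ibsp, which encodes bone sialoprotein, fell by 1.92 ± 0.63 in Isl1Cre/+ against WT, at 24.1, 8.25 and 22.2 cpm in WT, 2.79, 9.58 and 1.91 cpm in Isl1Cre/+ and 5.86, 12.6 and 15.6 cpm in mutant libraries. Like Spp1, Ibsp was lowest in Isl1Cre/+ libraries 1 and 3, and its own relation to Spp1 was not tested. For macrophages r was 0.522 (p = 0.143, rho 0.567, p = 0.121, r without the 2 farthest 0.464), with all 8 genes detected and sums of 68.5 to 160 cpm, and for motor neurons it was −0.0733 (p = 0.853). Skeletal muscle genes fell with Spp1 in Isl1Cre/+ against WT, 8 of 8 tested with a median log2 fold change of −2.06, and 8 of 8 rose in the mutant against Isl1Cre/+, with a median of 2.97. The 5 erythroid genes did the same, with medians of −1.34 and 2.08, where the median of all tested genes was −0.0016 and 0.00029. The part of these cells in the differences of Spp1 was not tested.

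For Runx3, Etv1 and Pvalb, no computed relation to markers of other cells passed the test, and Whrn was not set against any marker list. Runx3 had r of −0.0437 with the cartilage list and −0.0212 with lymphocytes and mast cells, of which Cd3e, Cd3d, Cd8a and Nkg7 were under 1 cpm on average. Pvalb had r of 0.0481 with skeletal muscle and −0.174 with spinal interneurons, none of whose 9 genes passed the filter. Etv1 had r of 0.661 with the motor neuron list (exact permutation p = 0.0526, adjusted p = 0.276, rho 0.617, p = 0.0857), whose sum of 11.9 to 18.8 cpm came almost wholly from Slc5a7, and r was 0.424 without the 2 farthest libraries.

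The neurotrophin-3 and TrkC pathway acts upstream of Runx3 and Etv1. None of its 22 genes, all tested, met the criterion in any of the 4 comparisons. Of all tested genes, 0.318% met it in the mutant against WT and 1.67% against Isl1Cre/+. The shares were 1.4% in Isl1Cre/+ against WT and 0.674% in the mutant against both controls, so that none of 22 says little about the pathway. The median log2 fold change of the 22 genes in the mutant was −0.03 against both WT and Isl1Cre/+. The receptor gene Ntrk3 was at 273, 262 and 296 cpm in WT, 231, 300 and 248 cpm in Isl1Cre/+ and 326, 287 and 277 cpm in mutant libraries, with a log2 fold change of 0.10 ± 0.10 in the mutant against WT and 0.19 ± 0.11 against Isl1Cre/+. Both controls overlap with the mutant for this gene. The ligand gene Ntf3 ranged from 9.58 to 21.1 cpm, and its log2 fold change was −0.11 ± 0.21 against WT and −0.09 ± 0.30 against Isl1Cre/+.

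Of Runx1, Runx2, Cbfb, Runx1t1, Etv4 and Etv5, relatives or partners of both transcription factors, 5 were tested and none met the criterion in any comparison. Runx1, the Runt factor of nociceptors, had a log2 fold change of −0.07 ± 0.24 in the mutant against WT, and Cbfb, which encodes the shared partner of Runx proteins, one of 0.01 ± 0.12. Etv4 and Etv5, of the same ETS subfamily as Etv1, had −0.10 ± 0.12 and −0.05 ± 0.13.

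Of 16 other genes known from proprioceptors or their subtypes, 15 were tested. They were chosen with earlier results of these data known, so their counts cannot show an enrichment. In the mutant against WT 3 of them met the criterion, all on the lower side, where 0.318% of all tested genes met it, 34 of 42 on the lower side. Over all tested genes this split was 80 higher and 40 lower without mutant library 1. Without any other single library more genes were called on the lower side. In the mutant against Isl1Cre/+ 2 met it, both on the lower side, where 1.67% of all tested genes met it, 35 of 221 on the lower side, and in Isl1Cre/+ against WT none met the criterion. Calb2, which encodes the calcium-binding protein calretinin, was at 5.46, 4.32 and 3.16 cpm in WT, 3.57, 5.15 and 2.33 cpm in Isl1Cre/+ and 2.56, 2.01 and 1.76 cpm in mutant libraries. All mutant libraries lie below all WT libraries, where 2.76% of tested genes did not overlap, and Isl1Cre/+ library 3 lies among the mutant ones. The log2 fold change of Calb2 was −1.03 ± 0.27 against WT (adjusted p = 0.9999) and −0.80 ± 0.32 against Isl1Cre/+ (adjusted p = 0.9997). Calb2 passed the filter through control libraries alone, with 43 to 68 counts in the mutant libraries, so it is no support for a change, and without it the counts are 2 and 1.

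Vstm2b, which encodes an immunoglobulin domain membrane protein, was at 12.8, 10.5 and 12.5 cpm in WT, 13.4, 9.90 and 11.8 cpm in Isl1Cre/+ and 9.47, 9.99 and 8.91 cpm in mutant libraries. In the quasi-likelihood test it fell by 0.34 ± 0.13 against WT (adjusted p = 0.9999) and 0.31 ± 0.13 against Isl1Cre/+ (adjusted p = 0.9997). Isl1Cre/+ library 2 lies below mutant library 2. Chodl, which encodes the C-type lectin domain protein chondrolectin, was at 58.9, 49.3 and 55.5 cpm in WT, 47.2, 47.2 and 48.8 cpm in Isl1Cre/+ and 49.2, 40.4 and 38.8 cpm in mutant libraries. It fell by 0.35 ± 0.12 against WT (quasi-likelihood test, adjusted p = 0.9999). All mutant libraries lay below all WT libraries, as for Whrn, where 2.76% of tested genes did not overlap. Against Isl1Cre/+ Chodl was −0.16 ± 0.09 and not called, and mutant library 1 lay above all Isl1Cre/+ libraries. Between Isl1Cre/+ and WT it was −0.18 ± 0.08 and not called. The remaining 12 tested genes met the criterion in no comparison, among them Slc17a7, the gene of a vesicular glutamate transporter (−0.04 ± 0.12 against WT), and Nefh, the gene of the heavy neurofilament chain (−0.17 ± 0.26). The median of the 15 was −0.04 against either control. None of the 9 genes of the sensory neuron list met the criterion in any comparison, where 0.318% to 1.67% of all tested genes met it.

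**Figure D4:**
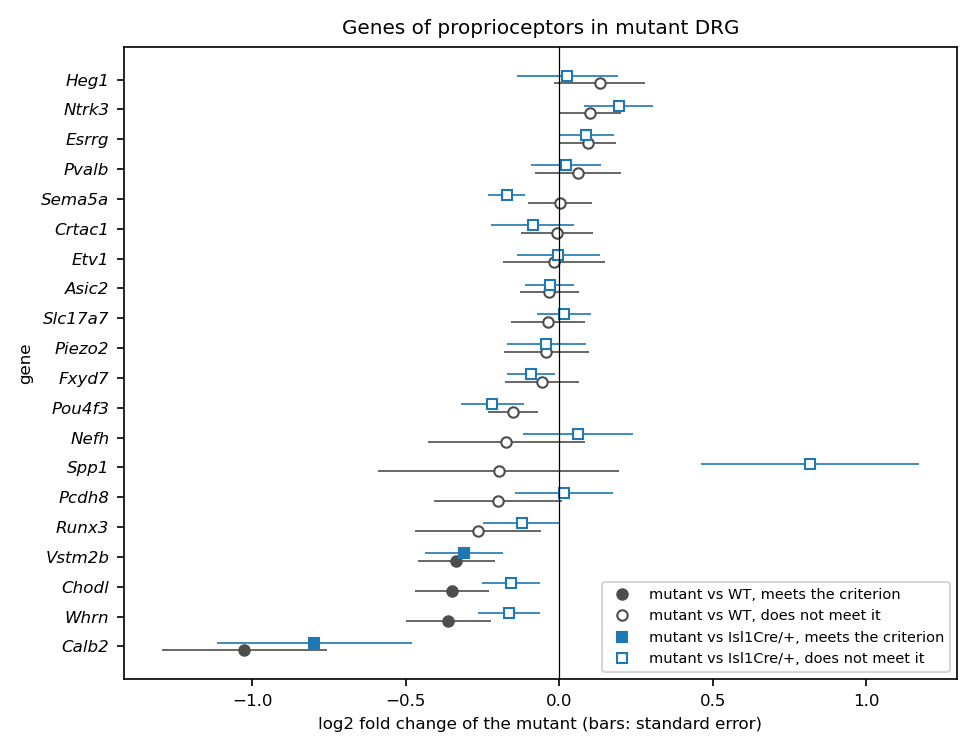
Log2 fold changes of the mutant for the 5 genes and the 15 other tested genes of proprioceptors, against WT (circles) and Isl1Cre/+ (squares), with bars for the standard error and filled symbols where the criterion was met. Calb2, Whrn, Chodl and Vstm2b are filled on the lower side against WT, Calb2 and Vstm2b against Isl1Cre/+, and no gene is filled on the higher side.

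Genes that act with the proteins of Pvalb, Whrn and Spp1 were followed by 3 further lists. Among 4 tested genes for partners of whirlin in its complexes, Adgrv1, the gene of a large adhesion receptor, met the criterion on the higher side in the mutant against both controls (0.65 ± 0.26, adjusted p = 0.9996), at 2.89, 6.46 and 3.12 cpm in the mutant against 2.16 to 3.39 cpm in the controls. It passed the filter through mutant library 2 alone, which stood apart and held 170 counts where the other libraries held 61 to 90, so this difference is no support for a change. Among 11 tested genes of calcium-binding EF-hand proteins beside parvalbumin, Calb2, with the same limit, was the one that met the criterion in the mutant, and none met the criterion in Isl1Cre/+ against WT. None of the 8 genes for receptors of osteopontin, the integrin subunits and Cd44, met the criterion in any comparison. Of all tested genes, 0.318% to 1.67% met it in the 4 comparisons, so that counts in lists this short say little.

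**Figure D5:**
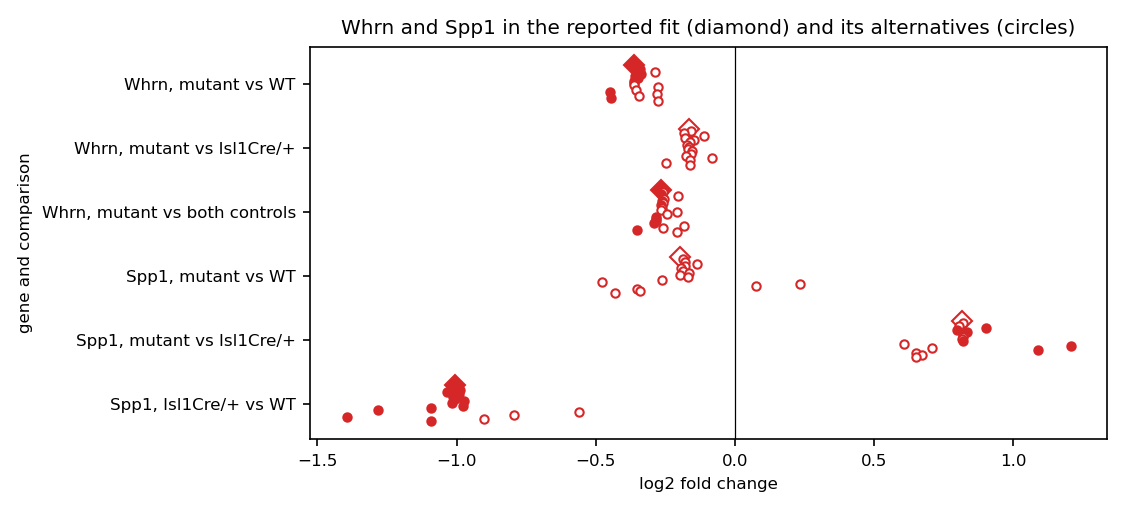
Log2 fold changes of Whrn and Spp1 as reported (diamonds) and under each alternative normalization, filter, tool or set of libraries (circles), filled where the criterion was met. Whrn stays below 0 throughout but is often unfilled, and Spp1 in the mutant against WT lies on both sides of 0.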

How the data were processed

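RNA of DRGs from E18.5 embryos was sequenced in 9 libraries, grouped by the genotype in their labels. The authors made the deposited counts from poly(A) RNA, with libraries that carry unique molecular identifiers, by aligning reads to mm10 with STAR 2.7.10 and counting uniquely mapped, deduplicated reads with HTSeq-count 0.6. Its strand setting and the annotation release are not given in the sources used here. The deposited log2 fold changes and log2 mean expression, the deposited p-values and the deposited scores are the authors' own comparisons by limma and were not used. Gene identifiers matched GENCODE M21 for 55154 of 55247 genes, and 15 symbols that had become dates were named again.

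Genes that reached 100 counts in any library were normalized by TMM and compared, 1 pair of genotypes per fit, by edgeR 4.0.16 (R 4.3.3) and its quasi-likelihood test, two-sided, with Benjamini-Hochberg adjustment over all 13200 tested genes. The mutant libraries were also tested against all 6 control libraries as 1 group. Exact two-sided permutation tests of log2 cpm (prior count 2) and correlations used scipy 1.17.1. List sums are sums of cpm. Promoters are those of RefSeq on GRCm38.p6. Depth, 23854607 to 29103444 counts per library, leaves counting error smaller than the spread between libraries. The scripts were tested on simulated data.

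The 5 genes and the lists (the neurotrophin-3 and TrkC pathway, RUNX and ETS relatives, other proprioceptor genes, partners of whirlin, EF-hand genes, osteopontin receptors and cell type markers) were chosen with earlier results of these data known. Named genes are the 5, Meis2, Isl1, Ntf3, Ntrk3, Runx1, Cbfb, Etv4, Etv5, genes of a list that met the criterion, the most abundant gene of cell type lists and the 3 genes most alike to each of the 5. Further names (marker genes under 1 cpm, Runx2, Runx1t1, Slc17a7, Nefh) were added after values were seen. Alternatives were DESeq2 size factors, library size only, scaling by sensory neuron genes, no filter, 100 counts in every library, DESeq2 1.42.0, limma voom (limma 3.58.1), all 3 genotypes in 1 fit, a block for the replicate number, leaving out single libraries and other call rules. Leaving out both libraries that stood apart, and the relations of Spp1 to muscle and erythroid genes, were chosen after seeing the data.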

Additional observations from a re-analysis of the deposited data

Results flagged for a closer look

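Runx3 in WT library 1, at 27.3 cpm, lay far from the other 5 of the 6 control libraries, which ranged from 17.7 to 19.6 cpm. The gap to the next library was 0.801 of the whole range of the 6, above the 95% critical value of Dixon's test for 6 values. A value above this limit turns up by chance in about 1 in 20 groups, and 5 genes were examined. WT library 1 is also one of the libraries with a low rank correlation to the others (0.981). Without it, the log2 fold change of Runx3 was −0.03 in the mutant against WT and 0.08 in Isl1Cre/+ against WT, where it was −0.26 and −0.13 with it.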

How the results depend on the processing

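Of 410 values under the alternatives, 305 kept their direction and their side of the criterion, 44 lost the criterion, 16 gained it and 45 changed sign, the largest of these at 0.235 in size. Leaving out 1 library at a time, the log2 fold change of Runx3 ranged from −0.41 to −0.028 in the mutant against WT, −0.27 to −0.032 in the mutant against Isl1Cre/+, −0.23 to 0.084 in Isl1Cre/+ against WT. That of Etv1 ranged from −0.18 to 0.14 in the mutant against WT, −0.10 to 0.17 in the mutant against Isl1Cre/+, −0.19 to 0.16 in Isl1Cre/+ against WT, −0.076 to 0.054 in the mutant against both controls. That of Pvalb ranged from −0.028 to 0.19 in the mutant against WT, −0.066 to 0.12 in the mutant against Isl1Cre/+, −0.028 to 0.16 in Isl1Cre/+ against WT, −0.013 to 0.14 in the mutant against both controls. That of Whrn ranged from −0.45 to −0.28 in the mutant against WT, −0.25 to −0.084 in the mutant against Isl1Cre/+, −0.27 to −0.12 in Isl1Cre/+ against WT, −0.35 to −0.18 in the mutant against both controls. That of Spp1 ranged from −0.48 to 0.23 in the mutant against WT, 0.61 to 1.21 in the mutant against Isl1Cre/+, −1.40 to −0.56 in Isl1Cre/+ against WT. The count of the 5 genes that met the criterion ranged from 0 to 1 in the mutant against WT, 0 to 2 in the mutant against Isl1Cre/+, 0 to 1 in Isl1Cre/+ against WT, 0 to 1 in the mutant against both controls.

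Among other settings, Runx3 changed sign with both libraries that stood apart left out. It went from −0.26 to 0.023 in the mutant against WT and from −0.13 to 0.084 in Isl1Cre/+ against WT. Values near 0 also changed sign, of which Etv1 in the mutant against WT was 0.0091 (scaling by sensory neuron genes), 0.0017 (no filter), 0.0077 (limma voom), Etv1 in the mutant against Isl1Cre/+ was 0.033 (scaling by sensory neuron genes), 0.011 (100 counts in every library), 0.011 (limma voom), 0.0092 (both libraries that stood apart left out), Etv1 in Isl1Cre/+ against WT was 0.012 (library size only), 0.0069 (no filter), 0.0066 (limma voom), Etv1 in the mutant against both controls was 0.021 (scaling by sensory neuron genes), 0.0093 (limma voom), Pvalb in the mutant against Isl1Cre/+ was −0.0061 (library size only), −0.020 (both libraries that stood apart left out). The fall of Whrn missed the criterion in the mutant against WT at −0.29 (scaling by sensory neuron genes), −0.28 (both libraries that stood apart left out) and in the mutant against both controls at −0.26 (DESeq2 size factors), −0.20 (scaling by sensory neuron genes), −0.25 (no filter), −0.26 (the DESeq2 test), −0.26 (all 3 genotypes in 1 fit), −0.21 (both libraries that stood apart left out), so that 0 of the 5 genes met it there. Spp1 in the mutant against Isl1Cre/+ met it at 0.90 (scaling by sensory neuron genes), 0.80 (no filter), 0.83 (100 counts in every library), 0.82 (the DESeq2 test), which made the count 1. At an adjusted p under 0.05 the count was 0 in every comparison. The cause of these changes was not tested. Counts of called genes over all 13200 tested moved by over 1.5 times under some settings. In the mutant against WT, 42 became 132 without WT library 1, 67 without WT library 3, 120 without mutant library 1, 74 without mutant library 2, 182 without both libraries that stood apart and 12 with scaling by sensory neuron genes. In the mutant against Isl1Cre/+, 221 became 407 without mutant library 1. In Isl1Cre/+ against WT, 185 became 340 without WT library 1 and 102 without Isl1Cre/+ library 3. Against both controls, 89 became 159 without WT library 1, 182 without WT library 3, 363 without mutant library 1 and 159 without mutant library 3. With no filter the 4 counts were 408, 1028, 845 and 830 of 33884 tested, and with 100 counts in every library the second and the third were 139 and 104 of 12090.

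The labels do not say whether the replicate numbers mark pairs. Deviations from the genotype means correlated at −0.595 to 0.389 between libraries of the same number, and not every library correlated best with its own number. With so few libraries per genotype, these values cannot decide whether the numbers mark pairs. With the replicate number as a block, Whrn missed the criterion at −0.36 against WT and −0.26 against both controls, which left 0 of the 5 genes in both, Spp1 met it at 0.82 in the mutant against Isl1Cre/+, which made 1, and Etv1 had 0.0061, 0.012, 0.0065, 0.015 in the 4 comparisons, the last against both controls. The block changed no other call of the 5 genes.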

Other observations

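Beside the proprioceptor genes, Trpv1, the heat-gated channel gene of nociceptors, was the 1 of 7 nociceptor genes that met the criterion in the mutant against WT (−0.39 ± 0.10, adjusted p = 0.9999). There 0.318% of all tested genes met it. Trpv1 also met it against both controls together (−0.34 ± 0.11), where 0.674% did, but not against Isl1Cre/+ (−0.28 ± 0.13). None of the 6 tested mechanoreceptor genes and none of the 7 Schwann and satellite glia genes met the criterion in any comparison, where 0.318% to 1.67% of all tested genes did. Among genes of other cells, Cpa3, a protease gene of mast cells, passed the filter through mutant library 2 alone (108 counts, beside 36 to 90 in the others), and its log2 fold change was −0.67 ± 0.24 in Isl1Cre/+ against WT and 0.99 ± 0.29 in the mutant against Isl1Cre/+. The endothelial genes Kdr (0.52 ± 0.20) and Pecam1 (0.35 ± 0.14) rose in Isl1Cre/+ against WT, Kdr fell in the mutant against Isl1Cre/+ (−0.37 ± 0.15), and none of the 5 fibroblast genes met the criterion.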
